A study of Mus musculus with 6 samples.

Results

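The genes described here are 9 markers used to define epithelial progenitor and basal stem cells: Prom1, Cd44, Cd24a, Epcam, Clu, Ppp1r1b, Sox9, Sox4 and Trp63. They were taken by name, as 9 of the 24346 gene symbols in the tables, from a list drawn up with earlier results of these data known. The samples were luminal cells of the mouse prostate, the secretory epithelial cells that face the lumen of the gland. They were sorted by flow cytometry from C57BL/6 mice aged 4 months. Which antibodies defined the gate is not stated. The PB group carried a transgene in which the rat probasin promoter, active in prostate epithelium, drives mouse Csf1, the gene of a macrophage growth factor. The WT group came from littermates with no transgene. Each group had 3 libraries, numbered 3, 5 and 8 in both, and the labels do not state whether a library is 1 animal or a pool, or how many founder lines were used. The unit is FPKM, a fragment count that is corrected for transcript length and library size, and transcripts were added up to genes.

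The prostate epithelium has a luminal layer and a basal layer, and cells able to rebuild glands have been described in both. The transcription factor p63 marks and maintains the basal layer. In surface profiles, CD44 and prominin-1 (CD133) are used to enrich for stem or progenitor cells, while EpCAM and CD24 mark epithelial cells broadly. Clusterin and DARPP-32 are described in luminal cells of the proximal ducts near the urethra, a region rich in progenitors, and SOX9 and SOX4 act in prostate development.

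Most of these markers were higher in the PB libraries, by widely different amounts. Clu, Ppp1r1b, Cd44, Prom1 and Sox4 rose between 5.60-fold and 23.3-fold in mean FPKM, Sox9 rose 1.89-fold and Epcam 1.46-fold, while Cd24a did not pass the test. Trp63 was at or under 1.22 FPKM in every library. In a limma test on log2(FPKM + 1), over every gene averaging 1 FPKM or more across the 6 libraries and with a Benjamini-Hochberg adjusted p threshold of 0.05, 7 of the 8 members tested were higher in PB and 0 were lower. Over all 10951 genes tested, 24.9% were higher and 7.47% lower. The median log2 change of the 8 members was 2.67, against 0.17 for all genes, and 5 of the 8 exceeded a log2 change of 2, as did 6.33% of all genes. All 8 had a WT mean above 1 FPKM, so none entered the test through PB alone. In the same 7 members every PB library lay above every WT library, which held for 34.7% of all genes tested, while 47.7% were without overlap in either direction. Since the labels do not say what a library represents, the p-values measure the spread between these libraries. In bulk RNA, fewer cells of a type and less RNA per cell cannot be told apart.

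**Figure D1:**
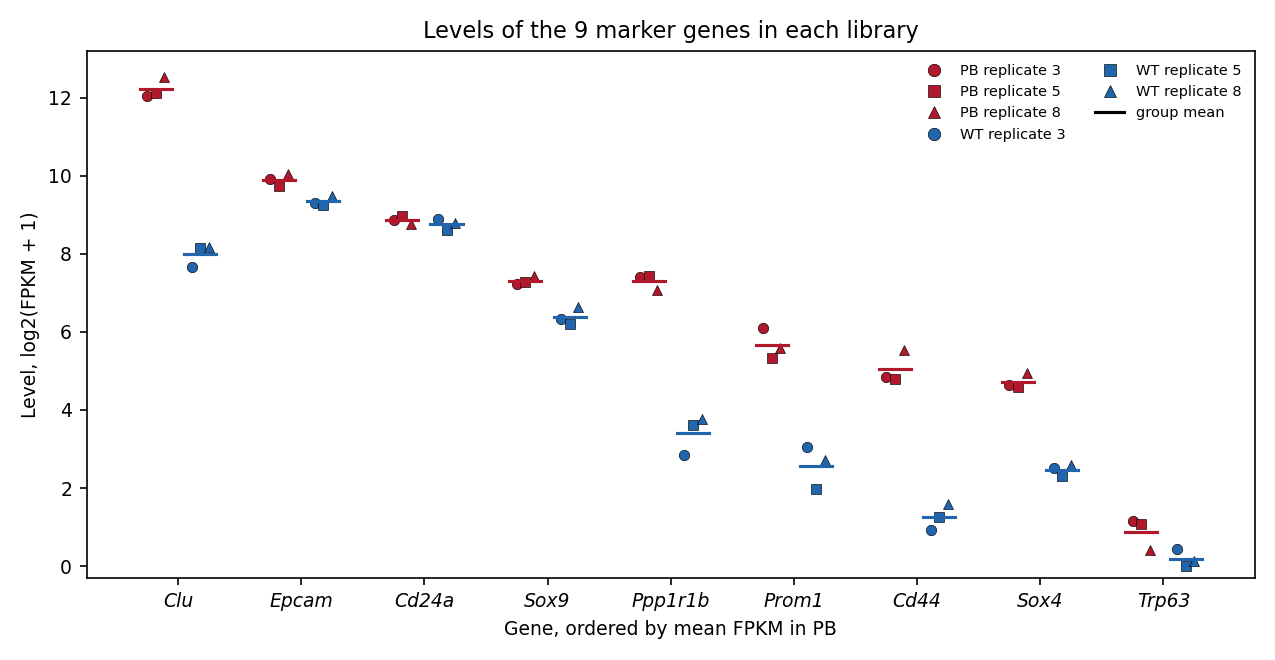
Level of each of the 9 genes as log2(FPKM + 1) in each library, PB (red) left of WT (blue), with the replicate number as the symbol and a bar at the group mean. Clu is the highest in PB, Cd24a overlaps between groups, and Trp63 lies at or under 1.22 FPKM in every library.

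The libraries were checked against their labels first. Csf1 was at 1082 to 1678 FPKM in PB and 1.54 to 3.98 FPKM in WT. The luminal keratin genes Krt8 and Krt18 were abundant throughout, at 1408 to 2660.5 FPKM in PB and 1050 to 2666 FPKM in WT. Of 11 luminal markers, 1 was higher (Tmprss2), 2 were lower (Hoxb13 and Spdef) and 8 did not pass. Markers of other cells were also present. The 10 basal markers summed to 545 to 860.2 FPKM in PB and 50.5 to 70.2 FPKM in WT, and 7 of 8 tested were higher, of which 2 had entered the test through PB alone. The 12 macrophage markers summed to 761 to 3067 FPKM in PB, highest in replicate 8, and 19.9 to 113 FPKM in WT, and all 12 were higher, of which 5 had entered the test through PB alone. The 10 fibroblast and smooth muscle markers summed to 529 to 793 FPKM in PB and 103 to 114 FPKM in WT, and all 9 tested were higher, of which 5 had entered through PB alone. The 6 endothelial markers summed to 11.1 to 14.9 FPKM in PB and 1.14 to 2.60 FPKM in WT. All 3 tested were higher, each having entered the test through PB alone. The 9 lymphocyte markers summed to 9.24 to 33.0 FPKM in PB and 0.446 to 1.18 FPKM in WT. All 4 tested were higher, again each through PB alone. None of the basal, macrophage, stromal or endothelial markers was at 0 in every library. Red blood cell genes stood apart in PB replicate 8, with a sum of 6712 FPKM against 695 and 723 FPKM in the other PB libraries and 113 to 553 FPKM in WT, and 0 of 5 tested passed (limma adjusted p from 0.0971 to 0.316). Neutrophil markers reached at most 2.53 FPKM in sum outside PB replicate 8, which had 31.1 FPKM, and neuroendocrine and seminal vesicle markers at most 7.93 and 22.5 FPKM. Without PB replicate 8, the number of members higher in PB was again 7. How much of each member's level comes from such cells was not tested.

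**Figure D2:**
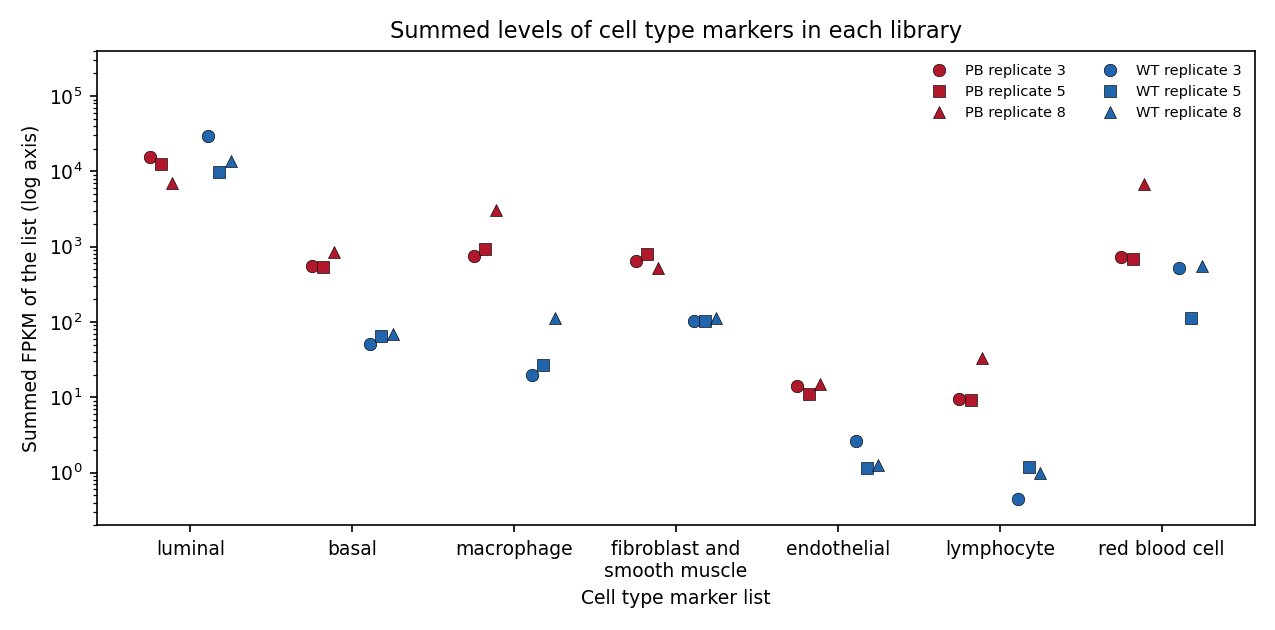
Summed FPKM of 7 cell type marker lists on a log axis, 1 point per library, PB (red) left of WT (blue) and replicate numbers as symbols. Basal, macrophage, stromal, endothelial, lymphocyte and red blood cell sums are higher in every PB library than in every WT library. PB replicate 8 has the highest macrophage and red blood cell sums.

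Prom1 encodes prominin-1, a membrane protein of cell protrusions, and lies on the minus strand of chromosome 5 (mm10, 43993622 to 44101736). Prom1 was at 67.8, 39.0 and 46.9 FPKM in PB replicates 3, 5 and 8, against 7.27, 2.91 and 5.54 FPKM in WT replicates 3, 5 and 8. The groups were far apart, and replicate 3 was the highest and replicate 5 the lowest within each. Its mean was 51.2 ± 14.8 FPKM in PB and 5.24 ± 2.20 FPKM in WT (SD, n = 3 each), and the log2 change was 3.09 ± 0.30 (SE) at a limma adjusted p of 0.00015. An antisense gene, Gm16401, shares 424 exon bases with Prom1 in the GENCODE M21 annotation, and the kit does not mark strand.

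Of 8 listed Prom1 transcripts, 2 carried all of the signal, and their annotated starts lie 6968 bases apart. The 250 bases before each start are shown because the mean shares of the 2 transcripts differed between groups. The exact test of that difference, given below, was not past 0.05, which 3 against 3 libraries cannot reach. Matches to the AP-1 motif TGANTCA are in capitals. The sequences are from RefSeq on build GRCm38.p6, minus strand, 5′ to 3′.
Prom1 upstream start, chr5:44101737-44101986: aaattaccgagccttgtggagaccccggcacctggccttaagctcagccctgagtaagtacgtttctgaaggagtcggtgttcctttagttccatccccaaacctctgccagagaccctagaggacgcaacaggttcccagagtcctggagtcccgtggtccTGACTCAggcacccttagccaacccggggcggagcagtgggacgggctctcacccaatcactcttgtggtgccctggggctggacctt
Prom1 downstream start, chr5:44094769-44095018: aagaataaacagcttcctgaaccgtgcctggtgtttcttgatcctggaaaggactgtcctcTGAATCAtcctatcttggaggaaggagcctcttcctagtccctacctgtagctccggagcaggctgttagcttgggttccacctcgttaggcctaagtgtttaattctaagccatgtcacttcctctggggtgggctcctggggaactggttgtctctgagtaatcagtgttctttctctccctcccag

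Each Prom1 window held 1 AP-1 match, TGACTCA beginning 88 bases before the upstream start and TGAATCA beginning 189 bases before the downstream start. Searched on both strands, this motif was in 6.75% of 32817 such windows over the genome. Windows were also available for Cd44, Epcam and Sox4, and the 5 windows of these 4 genes held no other match to AP-1 and none to the STAT motif TTCNNNGAA (7.01% of all windows), the SOX motif AACAAT (9.42%) or the NF-kB consensus (3.9%). A match describes letters only. The downstream window ends in a run of pyrimidines followed by ag, and in GENCODE the first exon of that transcript is exon 2 of the transcript from the upstream start. The annotated downstream start thus coincides with an exon boundary of the other transcript. Whether transcription begins there was not tested. Besides its own first exon, the upstream-start transcript differs by 2 internal exons of 24 and 69 bases near its 3′ end. In GENCODE its last exon of 875 bases also has no counterpart with the same bounds. As deposited, however, both transcripts end at 43993622, with lengths of 3719 and 3537 bases. Most of their bases are thus shared, and only a small part of the reads can tell the transcripts apart.

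The transcript from the upstream Prom1 start (NM_008935) was at 34.7, 20.9 and 27.4 FPKM in PB replicates 3, 5 and 8, against 1.61, 0 and 2.26 FPKM in WT. The transcript from the downstream start (NM_001163584) was at 33.1, 18.1 and 19.5 FPKM in PB and at 5.67, 2.91 and 3.28 FPKM in WT. Both rose in the test over 12785 transcripts, of which 19.7% were higher, 5.78% lower and 25.5% changed in either direction, with log2 changes of 3.78 ± 0.44 and 2.30 ± 0.29 (SE; limma adjusted p of 0.00117 and 0.0017). The transcript from the upstream start held 51.2%, 53.6% and 58.4% of Prom1 FPKM in PB and 22.1%, 0% and 40.9% in WT. The difference in mean share was 33.4 percentage points, with no overlap. Its exact two-sided permutation p was 0.1, the smallest that 3 against 3 allows, and 0.2 when adjusted over the 2 genes whose shares were tested. The WT shares rest on low levels, and the number of fragments behind them is not given.

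**Figure D3:**
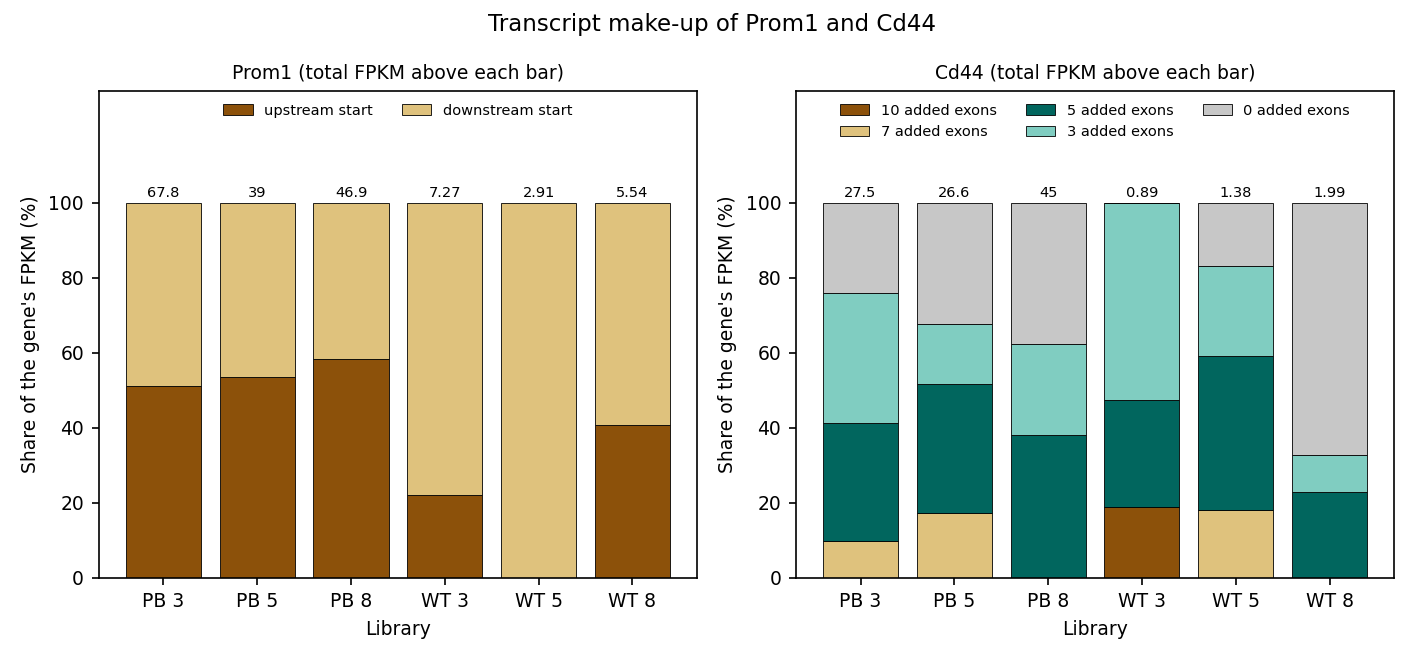
Share of the FPKM of Prom1 (left) and Cd44 (right) held by each transcript with signal, as stacked bars from 0 for each library, PB left of WT, with the gene's total FPKM above each bar. The transcript from the upstream Prom1 start holds over 51% in each PB library and at most 40.9% in WT. Cd44 shares vary most among the WT libraries, whose Cd44 totals are under 2 FPKM.

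Prom2, the other prominin gene, went the other way. It was at 26.6, 28.2 and 14.2 FPKM in PB and at 60.6, 67.3 and 82.7 FPKM in WT, with every PB library below every WT library. Its log2 change was -1.61 and passed (limma adjusted p = 0.00177). Prom2 stood lower than Prom1 in all 3 PB libraries and higher in all 3 WT libraries.

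Cd44 encodes the main cell surface receptor for hyaluronan, a sugar polymer of the extracellular matrix, and lies on the minus strand of chromosome 2 (mm10, 102811142 to 102901665). Cd44 was at 27.5, 26.6 and 45.0 FPKM in PB replicates 3, 5 and 8, against 0.890, 1.38 and 1.99 FPKM in WT. This was the largest ratio of means among the members, 23.3-fold, at 33.0 ± 10.4 FPKM in PB and 1.42 ± 0.551 FPKM in WT (SD). The log2 change was 3.80 ± 0.25 (SE, limma adjusted p = 2.66e-05). Macrophages and fibroblasts express Cd44 too, and replicate 8 had both the highest Cd44 and the highest macrophage sum within each group. Without PB replicate 8 the log2 change was 3.56. The ratio of Cd44 to Ptprc, the pan-leukocyte gene, was 7.50, 8.27 and 5.55 in PB and 17.6, 4.71 and 19.2 in WT. The groups overlapped, but the WT ratios rest on Ptprc at only 0.0505, 0.293 and 0.104 FPKM. Ratios of Cd44 to Vim and to Adgre1, a macrophage gene at 0.186 to 0.400 FPKM in WT, overlapped too. The ratio of Cd44 to Epcam did not, at 0.0285, 0.0313 and 0.0430 in PB and 0.00141, 0.00226 and 0.00280 in WT. The part of other cells in the Cd44 rise was not tested.

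CD44 transcripts differ by variable exons in the stem of the protein. The standard form, which lacks them, is typical of leukocytes and fibroblasts, and forms with variable exons are typical of epithelia. By GENCODE exons, the 9-exon transcript (NM_001039151) has no variable exon and the others with signal add 3, 5, 7 or 10. The transcript with 5 added exons (NM_001039150) was at 8.61, 9.15 and 17.1 FPKM in PB and 0.254, 0.568 and 0.454 FPKM in WT. The transcript with 3 added exons (NM_001177786) was at 9.51, 4.23 and 10.96 FPKM in PB and 0.467, 0.331 and 0.195 FPKM in WT. The standard form was at 6.63, 8.58 and 16.9 FPKM in PB and 0, 0.233 and 1.34 FPKM in WT, so both kinds were present in PB. Each of these 3 entered the transcript test only through PB and is therefore not counted. Transcripts with variable exons held 75.9%, 67.7% and 62.3% of Cd44 FPKM in PB and 100%, 83.1% and 32.6% in WT. The share of the transcript with 5 added exons, the most abundant one, was 34.6% ± 3.33 in PB and 30.9% ± 9.36 in WT (SD, n = 3 each), with an exact permutation p of 0.6. Esrp1 and Esrp2, which encode the regulators that keep variable exons in epithelia, did not pass. Esrp1 was at 17.3, 17.1 and 16.6 FPKM in PB and 19.5, 22.0 and 26.9 FPKM in WT (limma adjusted p = 0.0845), and it passed as lower with quantile normalization (0.00484) and median-ratio scaling (0.0124). Esrp2 was at 19.4, 24.4 and 32.4 FPKM in PB and 23.2, 22.5 and 25.4 FPKM in WT.

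Epcam encodes an adhesion molecule of epithelial cells and lies on chromosome 17 (mm10, plus strand, 87635979 to 87651127). Epcam was at 965, 849.8 and 1046 FPKM in PB replicates 3, 5 and 8, against 631, 612 and 711 FPKM in WT. The groups did not overlap, and the gene ranked 61st in mean level among all genes in PB and 85th in WT. Its log2 change of 0.55 ± 0.13 (SE) passed at a limma adjusted p of 0.0145. The call is close to the threshold. The adjusted p was 0.0514 with median-ratio scaling, 0.0507 without PB replicate 3 and 0.0719 without WT replicate 5, each with the same direction.

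Cd24a encodes a small glycoprotein anchored to the membrane by a lipid, and lies on chromosome 10 (mm10, plus strand, 43579169 to 43584265). Cd24a was at 463, 501 and 432 FPKM in PB and at 473, 389 and 445 FPKM in WT, with the groups interleaved. The log2 change was 0.10 with a 95% interval of -0.20 to 0.40 (limma adjusted p = 0.612), which leaves room for a change of either sign up to those bounds. Its sign turned to -0.05 with median-ratio scaling and -0.02 with quantile normalization. Ratios of genes within a library are free of any factor applied to the whole library, though not of quantile normalization. The ratio of Cd24a to Epcam was 0.480, 0.590 and 0.413 in PB and 0.750, 0.636 and 0.626 in WT, lower in every PB library.

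**Figure D4:**
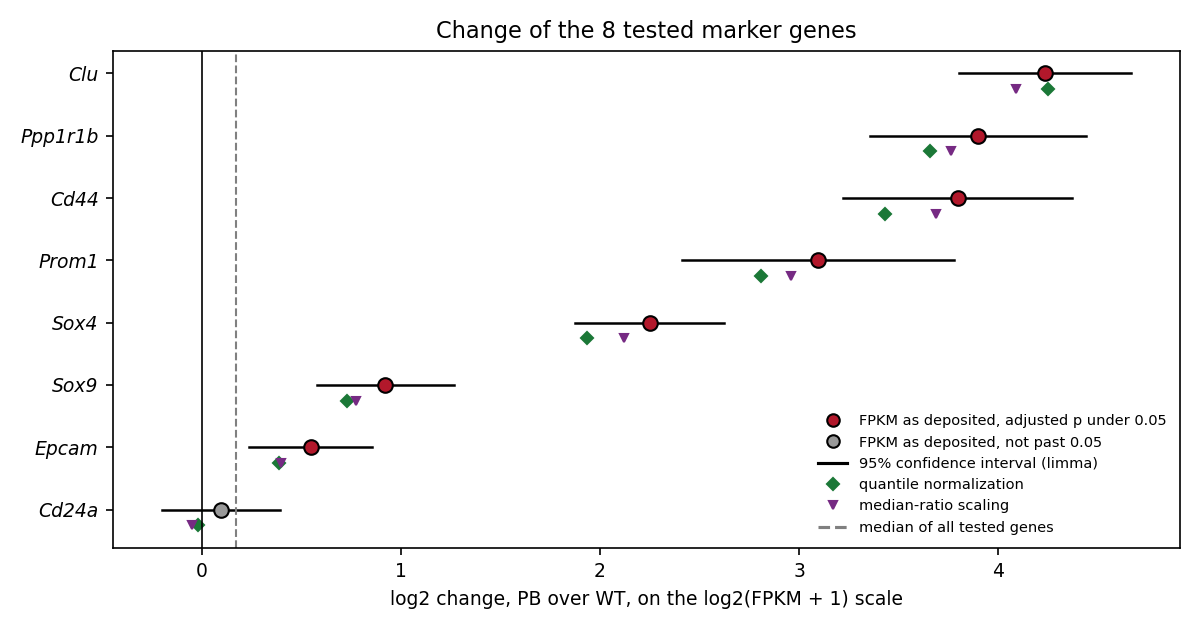
The log2 change of PB over WT for the 8 tested genes on the log2(FPKM + 1) scale, with 95% confidence intervals from limma as bars, red points past an adjusted p of 0.05, and small symbols for 2 other scalings. Clu has the largest change at 4.24, the Cd24a interval spans 0, and quantile normalization puts Cd44 at 3.43 and Clu at 4.25.

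Clu encodes clusterin, a secreted chaperone that binds unfolded proteins, and lies on chromosome 14 (mm10, plus strand, 65968483 to 65981545). Clu was at 4226, 4438 and 5864 FPKM in PB replicates 3, 5 and 8, against 202, 281 and 287 FPKM in WT. Every PB library was more than 10 times above every WT library. It was the 8th most abundant of all genes in PB and the 286th in WT. The log2 change was 4.24 ± 0.19 (SE, limma adjusted p = 3.92e-06). Clu was above Epcam in every PB library, at a ratio of 4.38, 5.22 and 5.61, and below it in every WT library, at 0.320, 0.459 and 0.404. Genes of its receptors were low. Lrp2 reached at most 0.00314 FPKM and Lrp8 0.301 FPKM in PB. Vldlr was at 0.754 to 0.968 FPKM in PB and 0.228 to 0.395 FPKM in WT, also under the filter. Trem2, a macrophage gene, was at 2.28, 5.03 and 23.7 FPKM in PB and 0.0714, 0.0977 and 1.34 FPKM in WT, and was the receptor gene that passed (limma adjusted p = 0.0214), having entered through PB alone.

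Ppp1r1b encodes DARPP-32, an inhibitor of protein phosphatase 1 that is switched on when cyclic AMP signalling phosphorylates it, and lies on chromosome 11 (mm10, plus strand, 98348738 to 98357795). Ppp1r1b was at 167, 173 and 135 FPKM in PB replicates 3, 5 and 8, against 6.23, 11.2 and 12.6 FPKM in WT. PB replicate 8 had the lowest of the 3 PB values, and still lay above all WT libraries. Among the PB libraries, that replicate had the highest basal and macrophage sums and the lowest fibroblast and smooth muscle sum (529 FPKM). The part of other cells in the Ppp1r1b rise was not tested. The mean was 158 ± 20.7 FPKM in PB and 9.99 ± 3.33 FPKM in WT (SD), a 15.8-fold difference, and the log2 scale gave 3.90 ± 0.24 (SE) at a limma adjusted p of 1.67e-05. An overlapping gene on the opposite strand, 1700003D09Rik, was listed at 0 in all 6 libraries. Genes of its phosphatase, its kinases and related inhibitors were split, 5 higher, 0 lower and 6 not past the threshold among 11 tested, with a median log2 change of 0.37. The all-gene values were 24.9% higher, 7.47% lower and a median of 0.17. The phosphatase catalytic genes were abundant in both groups. Ppp1ca was at 245, 259 and 276 FPKM in PB and 172, 203 and 229.6 FPKM in WT and did not pass (limma adjusted p = 0.0735). Ppp1cb and Ppp1cc rose, with log2 changes of 0.67 and 0.47. Ppp2ca, of protein phosphatase 2A, did not pass (log2 change 0.28, limma adjusted p = 0.0947). Ppp1r2, of another phosphatase 1 inhibitor, rose to 19.7 ± 3.04 FPKM in PB against 8.12 ± 0.547 FPKM in WT, and Prkacb, a catalytic subunit gene of protein kinase A, rose to 12.1 ± 4.45 FPKM in PB against 5.28 ± 1.32 FPKM in WT. The close relatives Ppp1r1a and Ppp1r1c reached at most 0.0869 FPKM in any library.

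Sox9 encodes a transcription factor needed for prostate budding, and lies on chromosome 11 (mm10, plus strand, 112782210 to 112787757). Sox9 was at 148, 154 and 173 FPKM in PB replicates 3, 5 and 8, against 79.4, 72.2 and 99.2 FPKM in WT, with no overlap. The log2 change was 0.92 ± 0.15 (SE, limma adjusted p = 0.00213). Its ratio to Epcam was 0.153, 0.182 and 0.165 in PB and 0.126, 0.118 and 0.140 in WT, again without overlap.

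Sox4 encodes a transcription factor of another SOX group, used in progenitors of many tissues, and has a single exon on chromosome 13 (mm10, minus strand, 28950730 to 28953682). Sox4 was at 23.8, 23.0 and 29.9 FPKM in PB and at 4.76, 3.95 and 4.99 FPKM in WT. The spread within each group was small beside the gap, and the log2 change was 2.25 ± 0.16 (SE, limma adjusted p = 4.06e-05). The ratio of Sox4 to Sox9 was 0.161, 0.149 and 0.173 in PB and 0.0599, 0.0548 and 0.0503 in WT. In GENCODE, the opposite-strand gene Gm26735 shares 2616 exon bases with Sox4, and reads from the 2 strands are not separated.

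Among 18 other Sox genes, 4 passed the filter, with 3 higher, 0 lower and 1 not past the threshold, where 24.9% of all genes were higher and 7.47% lower. Sox13 was at 4.81, 5.16 and 4.58 FPKM in PB and 2.83, 2.44 and 2.48 FPKM in WT (limma adjusted p = 0.011). Sox18, known from endothelial cells, was at 1.46 to 2.57 FPKM in PB and 0 to 0.691 FPKM in WT, and Sox2 at 1.42 to 1.90 FPKM in PB and 0.293 to 0.738 FPKM in WT, and both entered the test through PB alone. Sox12, the relative of Sox4 in the same SOX group, was at 0.630, 0.705 and 0.840 FPKM in PB and 1.07, 1.56 and 1.36 FPKM in WT (limma adjusted p = 0.153), and it passed as lower with quantile normalization (0.00664). Sox14, Sox15, Sox30 and Sry were listed at 0 in all libraries. No other listed Sox gene reached the level of Sox9 or Sox4 in either group.

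Trp63 encodes p63, a p53 relative, and lies on chromosome 16 (mm10, plus strand, 25683765 to 25892088). Trp63 was at 1.22, 1.12 and 0.338 FPKM in PB replicates 3, 5 and 8, against 0.364, 0 and 0.0923 FPKM in WT. PB replicate 8 fell within the WT range, and the gene was under the filter of the test. The difference in mean log2(FPKM + 1) was 0.69, with an exact two-sided permutation p of 0.2 (n = 3 per group). With no filter on low values, the limma adjusted p was 0.0858. A promoter far upstream gives the TA forms of p63, and an internal promoter gives the shorter ΔN forms that are typical of basal cells. All Trp63 signal was assigned to transcripts from the internal start at 25801916. The 3 transcripts from the upstream start were listed at 0 in every library, with upper bounds of the deposited interval of at most 0.0221 FPKM in PB and 0.034 FPKM in WT. In WT replicate 5, where the whole gene was at 0, these bounds were 0 too. The number of fragments behind such low levels is not given, so these values cannot show that TA forms were absent. The split among the ΔN transcripts differed between libraries, since NM_011641 carried the signal in PB replicate 3 and was at 0 in PB replicates 5 and 8.

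The basal keratin genes Krt14 and Krt5 lay above Trp63 in every library, while the basal markers Jag2 and Aqp3 were about as low as Trp63 or lower in some. Krt14 was at 88.5, 70.9 and 141 FPKM in PB and 8.09, 9.83 and 9.03 FPKM in WT, a log2 change of 3.28 (limma adjusted p = 3.83e-05). Krt5 was at 17.6, 16.3 and 29.8 FPKM in PB and 2.33, 2.19 and 3.44 FPKM in WT, a log2 change of 2.57 (limma adjusted p = 0.000157). PB replicate 8 had the highest Krt5 and Krt14 and the lowest Trp63 of the PB libraries. The ratio of Trp63 to Krt5 was 0.0690, 0.0691 and 0.0114 in PB and 0.156, 0 and 0.0268 in WT.

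Genes that p63 regulates in keratinocytes were followed as a list. Of 17 in the tables, 12 were tested, and 9 were higher, 0 lower and 3 not past the threshold. Over all genes, 24.9% were higher and 7.47% lower. The median log2 change of the list was 1.22, against 0.17 for all genes. The other 5 were under the filter, and 3 of the 12 entered through PB alone. Perp, a desmosome gene, was at 142, 142 and 146 FPKM in PB and 139, 154 and 204 FPKM in WT (limma adjusted p = 0.394), and Ripk4 at 22.0, 30.6 and 23.5 FPKM in PB and 18.5, 16.2 and 20.9 FPKM in WT (0.0893). Perp passed as lower with quantile normalization (0.0315). Trp53 itself rose to 24.9 ± 4.52 FPKM in PB against 10.3 ± 0.494 FPKM in WT (limma adjusted p = 0.000858), while Trp73 reached at most 0.0298 FPKM.

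Other markers used for prostate stem and progenitor cells moved with these members. Of 22 listed, 18 were tested, and 16 were higher, 0 lower and 2 not past the threshold, at a median log2 change of 1.51, and 3 entered through PB alone. Of all genes, 24.9% were higher and 7.47% lower, with a median of 0.17. Their direction was known from earlier results of these data when they were listed, so the count describes them and adds no independent support. Ly6a, the gene of the surface antigen Sca-1, was at 1778, 1510.1 and 2136 FPKM in PB and 17.3, 28.2 and 43.4 FPKM in WT. Wfdc2, of a secreted protease inhibitor family, was at 1457, 1025 and 1641 FPKM in PB and 19.3, 48.5 and 55.5 FPKM in WT. Krt19, a keratin gene of ducts, rose to 2891 ± 508 FPKM in PB against 1525 ± 347 FPKM in WT. Aldh1a1 and Bmi1, both used as stem cell markers, were the 2 that did not pass. Aldh1a1 was at 103, 117 and 92.2 FPKM in PB and 112, 139 and 162 FPKM in WT (limma adjusted p = 0.109), and it passed as lower with quantile normalization (0.0106) and median-ratio scaling (0.0133).

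The genes of EpCAM's membrane partners, related proteins and cleavage enzymes were mostly higher in PB. The test covered 10, with 8 higher, 0 lower and 2 not past the threshold, at a median log2 change of 1.15, beside 24.9% higher, 7.47% lower and a median of 0.17 over all genes. The tetraspanin genes Cd9 and Tspan8 rose, with log2 changes of 1.90 and 2.09, as did the claudin gene Cldn7 (1.08) and the catenin gene Ctnnb1 (0.86). Psen2, a presenilin gene of the protease that cleaves EpCAM, was at 10.7, 8.64 and 10.2 FPKM in PB and 12.3, 13.7 and 18.1 FPKM in WT (limma adjusted p = 0.053). With the replicate number as a block, Psen2 passed as lower (limma adjusted p = 0.04996), which takes the genes lower over all related lists to 2, against 1 without the block (Prom2). Psen2 also passed as lower with quantile normalization (0.00457), median-ratio scaling (0.0148) and array weights (0.0297), and without WT replicate 3 (0.0429).

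Of 14 CD44 ligands, hyaluronan enzymes and partners, 10 were tested, and 6 were higher, 0 lower and 4 not past the threshold, at a median log2 change of 1.38 (all genes: 24.9% higher, 7.47% lower, median 0.17). Of the 6, 1 had entered through PB alone (Has2). Cd74, which also belongs to MHC class II presentation and can pair with CD44, was at 869.5, 1090.4 and 3083 FPKM in PB and 18.1, 34.1 and 52.3 FPKM in WT. Spp1, the gene of the ligand osteopontin, was at 41.0, 87.7 and 305 FPKM in PB and 0.313, 3.53 and 27.4 FPKM in WT. Both are made by macrophages and were highest in the replicates 8, as the macrophage sum was. The part of macrophages in the rise of Cd74 and Spp1 was not tested. Ezr, of the cytoskeletal linker ezrin, was at 613, 594 and 614 FPKM in PB and 489, 326 and 506 FPKM in WT (limma adjusted p = 0.0673), and Mif did not pass (limma adjusted p = 0.875).

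Of 4 genes of CD24 ligands, Selp rose to 16.7 ± 5.55 FPKM in PB against 1.86 ± 1.54 FPKM in WT, and Hmgb1 to 57.8 ± 3.10 FPKM in PB against 38.6 ± 1.63 FPKM in WT. Siglecg was at 0.0633, 0 and 0.716 FPKM in PB and 0.0138, 0 and 0 FPKM in WT, and L1cam at 0.406 to 0.834 FPKM in PB and 0.113 to 0.319 FPKM in WT, both under the filter.

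**Figure D5:**
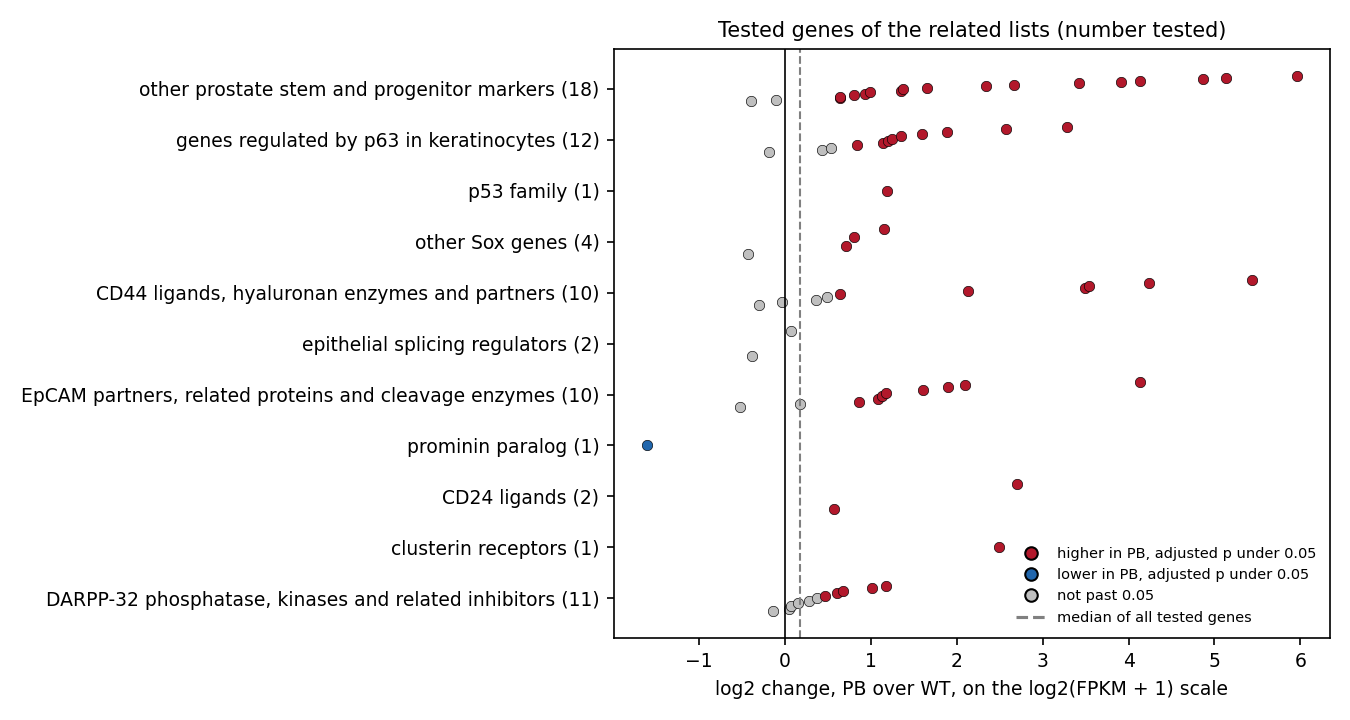
The log2 change of PB over WT of each tested gene in 11 related lists, with the number tested in brackets, red for higher and blue for lower at an adjusted p of 0.05 and grey for neither. Prom2, at -1.61, is the only blue point, and the dashed line marks the median of all genes at 0.17.

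In order of mean level, Clu led in PB, followed by Epcam, Cd24a, Sox9, Ppp1r1b, Prom1, Cd44, Sox4 and Trp63. Sox9 and Ppp1r1b, Prom1 and Cd44, and Cd44 and Sox4 overlapped as neighbours. In WT the order was Epcam, Cd24a, Clu, Sox9, Ppp1r1b, Prom1, Sox4, Cd44 and Trp63, and Ppp1r1b overlapped with Prom1 and Prom1 with Sox4. Clu thus led in PB but followed Epcam and Cd24a in WT, and Cd44 stood above Sox4 in PB and below it in WT.

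For each member, the 2 genes of most similar profile were found by the root mean square difference of centred log2(FPKM + 1) over the 6 libraries. For Cd44 these were Anxa3, an annexin gene, and H2-Q7, an MHC class I gene, at differences of 0.114 and 0.138. For Clu they were S100a6 and H2-Q9 (0.0813 and 0.125), and for Ppp1r1b the basal keratin gene Krt15 and Mfge8 (0.201 and 0.238). Prom1 was nearest to Nfkbiz and Lbp (0.281 and 0.282), and Sox4 to Flna and Matn2 (0.0823 and 0.101). Sox9 was nearest to Map4 and Nck2 (0.0273 and 0.037), Epcam to Lmna and Appl1 (0.053 and 0.0546), Cd24a to Syap1 and Btg1 (0.0232 and 0.0461), and Trp63 to Add3 and Nudt7 (0.0849 and 0.0855). Since the groups are far apart for most of these genes, the measure mainly finds genes of the same change.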

How the data were processed

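Per the labels' protocols, cDNA was made from sorted cells with the SMART-Seq v4 kit and sequenced on an Illumina instrument. Per the submitters' processing notes, bcl2fastq 1.8.3, TopHat and Cufflinks were used with build mm10. The authors deposited 1 Cufflinks table per library, with FPKM and its interval for 34535 transcripts, and a coverage signal that is 1 constant times FPKM within a table. That constant, which grows with depth, was 4.17 to 5.01 in PB and 2.72 to 3.50 in WT. Fragment totals are not given, so the depth behind each value is unknown.

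FPKM were summed per gene symbol, used as deposited and tested as log2(FPKM + 1), a scale that understates changes of low genes. limma 3.58.1 in R 4.3.3 was run with an intensity trend, two-sided. The 9 genes with a skipped or failed status in any library were left out. Starts are printed as the table's start plus 1. Shares and Trp63 were tested by exact permutation. The script was tested on simulated data. Named genes were the members, 2 nearest profiles each, and from each related list all of up to 5, otherwise the 4 most abundant and up to 2 largest changes per direction. Bmi1, Aldh1a1, Psen2, Ppp1r1a, Ppp1r1c, the Sox genes listed at 0, and the ratios within libraries were added after their values were seen. Some genes that this rule names are not reported here. Members and lists were chosen with earlier results of these data known. Libraries of the same number deviated together from their group means (correlations of 0.257, 0.111 and 0.182 across genes for 3, 5 and 8). The labels do not say that they are pairs, so the numbers were treated as pairs only in alternatives, such as the replicate block. The main fit and the permutation tests are unpaired.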

Additional observations from a re-analysis of the deposited data

How the results depend on the processing

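Over 17 alternatives, the calls of Prom1, Cd44, Clu, Sox9, Sox4 and Ppp1r1b kept their direction and side of the threshold, and Cd24a passed under none of them. Epcam lost its call with median-ratio scaling (log2 change 0.40), without both libraries numbered 3 (0.51) and without both numbered 5 (0.58), and its log2 change ran from 0.48 to 0.63 with each library left out in turn. The cause was not tested. The replicate block changed no member's call. Leave-one-out counts were 2053 to 2489 genes higher and 478 to 850.0 lower (478 without WT replicate 5 and 526 without WT replicate 8). For transcripts they were 1716 to 2175 higher and 377 to 731 lower (377 without WT replicate 5 and 452 without WT replicate 8).

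Quantile normalization gave 1694 genes higher and 2362 lower (41.8% of calls higher, against 77.0% as deposited), and 1594 transcripts higher and 1969 lower. Median-ratio scaling gave 1413 genes (61.8% of calls higher) and 1262 transcripts lower. These scalings put the median log2 change of all genes at -0.16 and 0.05, against 0.17 as deposited. Leaving out both libraries numbered 5 gave 1519 higher and 341 lower genes, with 1109 transcripts higher and 220.0 lower. Without both numbered 3, 1351 transcripts were higher and 404 lower. Without both numbered 8, 485 genes and 385 transcripts were lower.

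As deposited, 24.9% of all genes tested were higher and 7.47% lower. Of the 106 genes on the related lists, not all of them tested, 48 were higher. That count was 36 with quantile normalization, 39 to 45 with each library left out and 31 without both numbered 5. The listed genes that were lower numbered 1, and 7 with quantile normalization, 4 with median-ratio scaling, 2 with the replicate block and 2 with array weights. They numbered 1 to 3 with each library left out (3 without WT replicate 3). The Trp63 difference stayed positive, at 0.56 to 0.93 with each library left out. The share of the transcript from the upstream Prom1 start differed by 22.9 to 43.4 percentage points. That of the Cd44 transcript with 5 added exons differed by -0.28 to 8.87.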

Other observations

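Some genes of the related lists that the naming rule left out are given here, chosen after their values were seen. Has1, which encodes a hyaluronan synthase and so makes the ligand of CD44, was at 37.7, 36.7 and 33.5 FPKM in PB replicates 3, 5 and 8, against 2.32, 1.57 and 2.80 FPKM in WT, a log2 change of 3.53 (limma adjusted p = 6.5e-06). Has2 was at 3.87, 5.88 and 3.30 FPKM in PB and 0, 0.142 and 0.520 FPKM in WT. Has3 reached at most 0.109 FPKM. The hyaluronidase genes Hyal1 and Hyal2 did not pass (limma adjusted p = 0.408 and 0.284). Has1 was thus the synthase gene with the highest level in every library.

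Aldh1a3, which encodes a retinoic acid synthesis enzyme, was at 34.1, 37.1 and 53.9 FPKM in PB and 0.177, 0.341 and 0.888 FPKM in WT. With a WT mean of 0.469 FPKM, Aldh1a3 entered the test through PB alone. Its relative Aldh1a1 did not pass. Procr, the gene of the protein C receptor, was at 19.9, 22.7 and 56.4 FPKM in PB and 1.53, 1.66 and 2.45 FPKM in WT. Ly6d was at 41.2, 34.9 and 79.0 FPKM in PB and 1.64, 0.419 and 8.56 FPKM in WT. Kit, Lgr5 and Axin2, also used as stem cell markers, lay under the filter, at no more than 1.17 FPKM in any library.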
